A study of Mus musculus with 4 samples.

Results

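Interferon-stimulated genes are the genes that cells switch on when interferon binds its receptors, and 34 of them were followed here in mouse lung endothelial cells (ECs) during the lung growth that follows pneumonectomy (PNX). The members were a list of gene symbols, looked up among the 24063 symbols of the deposited tables and each represented by its transcript of highest summed count. All 34 were present and all 34 passed the filter on low counts, as did 16208 symbols in all.

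ECs were taken from the lungs of C57BL6J mice (C57BL6 in the sample labels), 8 weeks old, 7 days after unilateral PNX, in which the left lung was removed, or from sham-operated mice that underwent thoracotomy alone. Cells were collected with magnetic beads against CD31, a surface protein of endothelium that platelets and some leukocytes also carry. The paper reports a check of these cells by flow cytometry for CD31 and VE-cadherin and for absence of CD45. ECs below stands for cells selected in this way, whose libraries also held counts for markers of other cells. There were 2 libraries in each group, each pooled from 2 mice, so that p-values measure the spread between such pools. That spread was not far above counting noise (mean chi-square per gene 1.76 within sham and 1.52 within PNX). The spread between single mice was not measured. The libraries held 65763553 to 81282871 counts over all transcripts.

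The mice were described as male, but the Y-linked genes Kdm5d, Uty, Ddx3y and Eif2s3y had 0 counts in all 4 libraries, which allows at most 3 counts in each, while Xist, the RNA of the inactive X chromosome, had 31872 to 33792 normalized counts. The libraries thus went against the sex described for the mice in both groups alike. Normalized counts here are counts scaled by the trimmed mean of M-values (TMM), which centres the bulk of the genes on no change, to the mean library size.

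Type I interferons act through the receptor IFNAR, the kinases JAK1 and TYK2 and a complex that holds STAT2 and IRF9, which binds the interferon-stimulated response element in the promoters of its target genes. The products of these genes detect viral RNA, degrade it, block its translation, restrict the entry and release of virus or load peptides on class I major histocompatibility complex (MHC) molecules. Many of them are kept at a low level in resting endothelium and other cells by a tonic interferon signal.

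The interferon-stimulated genes did not move as a block in post-PNX lung ECs. At an adjusted p under 0.01 (edgeR, quasi-likelihood F test, adjusted by Benjamini-Hochberg across the 16208 genes), 15 of the 34 rose (44.1%, against 29.3% of all genes tested), 8 fell (23.5%, against 27.8%) and 11 did not pass. In either direction 57.1% of all genes tested passed, and of the 11554 genes whose mean counts lay in the range of the members 64.2% passed, 32.5% higher and 31.7% lower. The rises were led by Zbp1, a sensor of left-handed nucleic acid, by Oas1a, a 2-5A synthetase, by Oasl1 and by the ubiquitin-like modifier Isg15. The falls were led by Gbp7, a guanylate-binding protein, by Parp14, an ADP-ribosyltransferase, and by the RNA sensor Ifih1.

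None of these changes reached 2-fold. The log2 fold change ran from -0.55 for Gbp7 to 0.69 for Zbp1, and every 95% confidence interval lay between -0.60 and 0.81, inside a change of 2-fold in either direction. None of the 34 passed the study's pair of thresholds, an adjusted p under 0.01 with a log2 fold change above 1 or below -1, by edgeR or by DESeq2, and since no estimate reached 2-fold the count was also 0 at an unadjusted p under 0.05. Of all genes tested 7.56% passed that pair, 5.9% upward and 1.66% downward, and of the genes in the members' range of counts 4.39% did. The median absolute log2 fold change was 0.20 for the members, 0.22 for all genes tested and 0.18 for the genes in the members' range.

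Libraries of a group lay close together, with a median within-group SD of 0.031 on the log2 scale over the members. Both post-PNX libraries lay above both sham libraries for 18 members (52.9%, against 40.8% of all genes tested) and below them for 13 (38.2%, against 40.5%), and the groups overlapped for 3. The median log2 fold change of the members was 0.05, beside 0.00 for all genes tested. It was 0.015 without sham replicate 1 and 0.080 without sham replicate 2. Summed over the 34 genes, sham libraries held 108988 and 109272 normalized counts, and post-PNX libraries held 108744 and 108861.

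**Figure D1:**
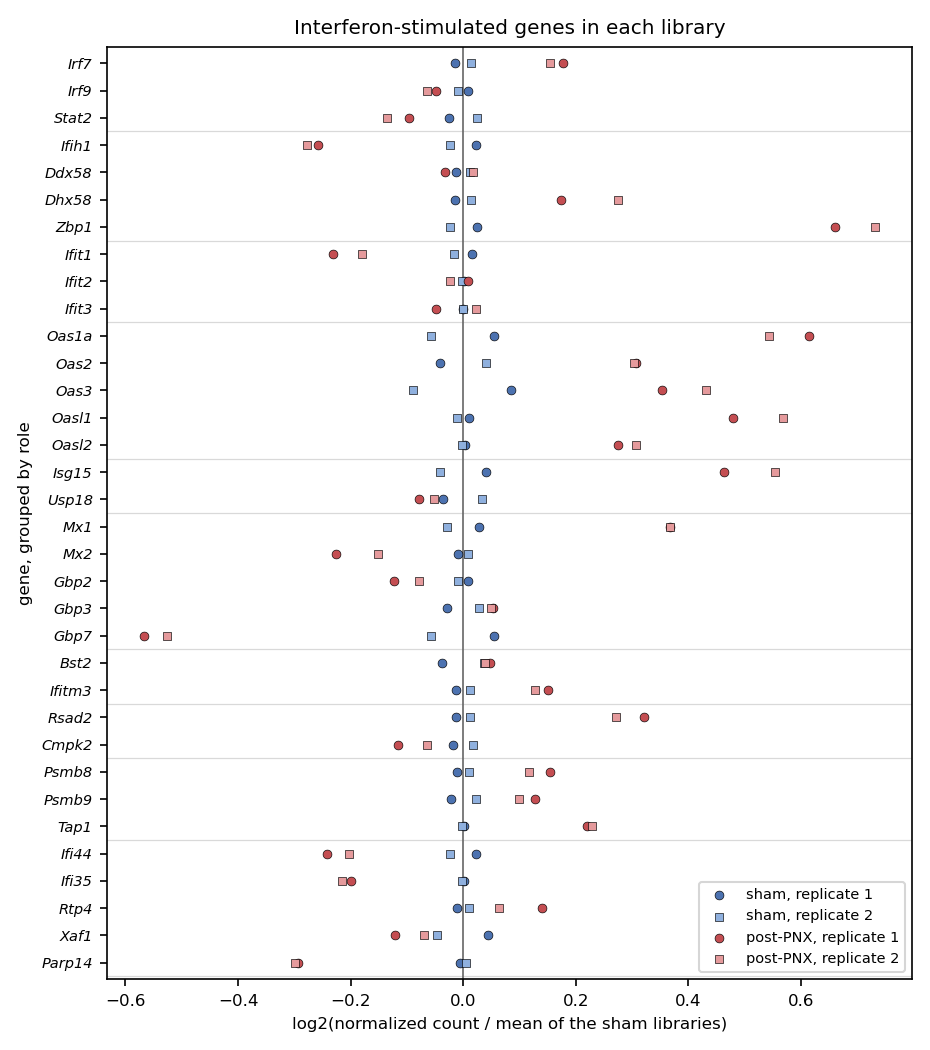
Normalized count of each interferon-stimulated gene in each library, as the log2 ratio to the mean of the sham libraries (x axis), with genes on the y axis grouped by role. Circles and squares are replicates 1 and 2, sham in blue and post-PNX in red. Zbp1 and the 5 genes Oas1a to Oasl2 stand to the right of their sham libraries, and Gbp7, Parp14 and Ifih1 stand to the left.

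The scaling decided how the list split. When libraries were scaled to the summed counts of 12 endothelial genes (Pecam1, Cdh5, Kdr, Tek, Tie1, Erg, Cldn5, Esam, Egfl7, Ramp2, Emcn and Sox17) in place of TMM, the median of all genes moved to 0.22 and that of the members to 0.26, 26 members were higher and 2 lower, and 53.9% of all genes tested were higher and 10.6% lower. Those 12 endothelial genes summed to 503555 to 508644 normalized counts in the sham libraries, against 434803 to 437260 in the post-PNX libraries, and 9 of them fell and 2 rose under TMM. In bulk samples, fewer cells of a type and less RNA per cell cannot be told apart. Directions below are under TMM, relative to the bulk of the genes, and the value under the endothelial scaling is given for genes that rose or fell where it turns the direction or ends the call. Counts of genes that rose or fell in the sets below stand beside 29.3% of all genes tested that rose and 27.8% that fell.

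**Figure D2:**
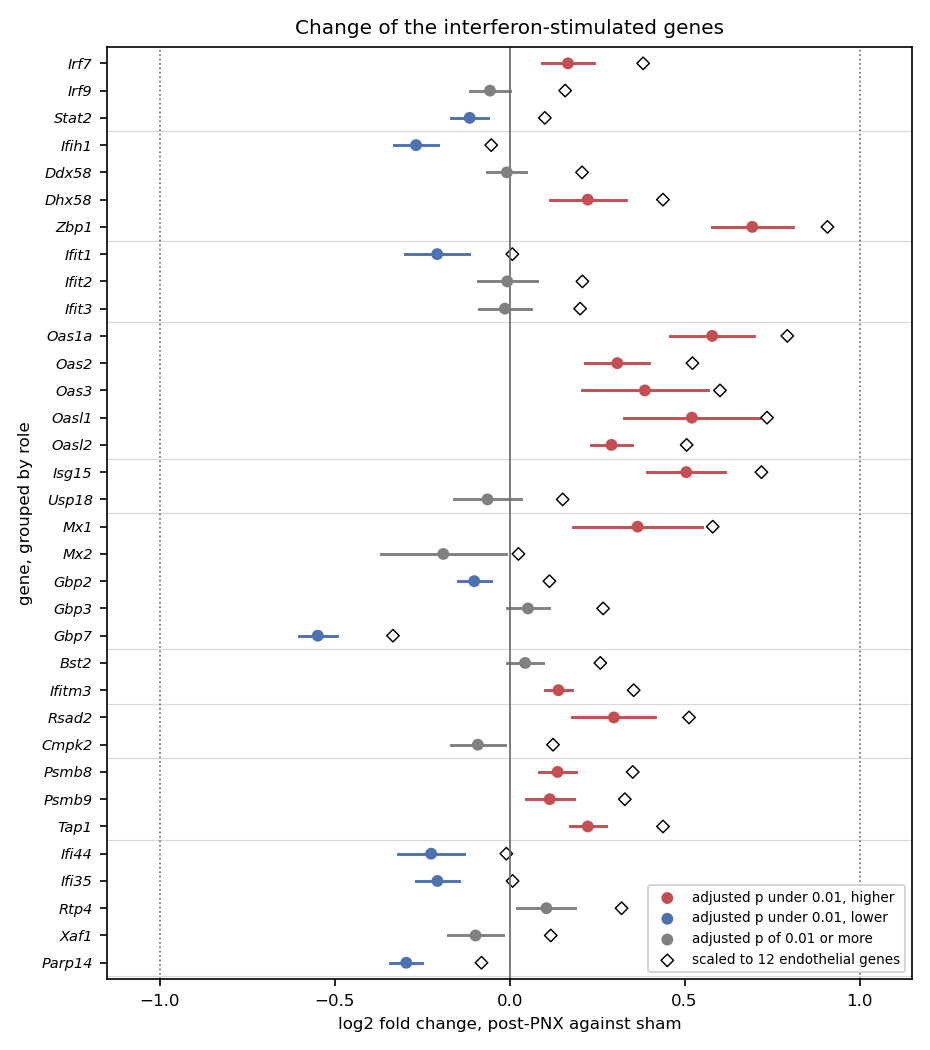
Log2 fold change of each interferon-stimulated gene, post-PNX against sham (x axis), with its 95% confidence interval from edgeR under TMM, red where higher and blue where lower at an adjusted p under 0.01 and grey otherwise. Open diamonds give the estimate when libraries are scaled to 12 endothelial genes, and dotted lines mark 2-fold. All points lie inside the dotted lines, from -0.55 for Gbp7 to 0.69 for Zbp1 under TMM.

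In RefSeq's windows of 250 bases before to 50 bases after the start (GRCm38.p6), available for 26 of the 34 members, the core of the interferon-stimulated response element, searched on both strands as GAAA, any 2 bases and GAAA again, with overlapping matches allowed, was found in 14 (53.8%), beside 3.99% of 27025 genes with a window. The match is a description of the letters and not of a factor bound there. Dhx58, Zbp1, Oas2, Usp18, Mx1, Mx2, Rtp4 and Parp14 had no window in that table.

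The core occurred in members of every kind of outcome. It was present in 5 of the 11 members that rose and had a window, in 5 of 7 that fell and in 4 of 8 that did not pass the test. The gamma-activated sequence of the interferon-gamma response, searched as TTCNNNGAA, which reads the same on both strands, was present in 7 of 26 members (26.9%, against 9.55% of all genes with a window), of which 3 rose, 2 fell and 2 did not pass.

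The RefSeq stretches printed here show where the core lies in promoters of genes that rose, fell or did not pass, each the 160 bases before the annotated start, written 5′ to 3′ on the strand of the gene, with matches to the response element core on either strand in capitals. Isg15 (chr4:156200819-156200978, minus strand), Oas1a (chr5:120907526-120907685, minus strand), Oas3 (chr5:120777660-120777819, minus strand) and Rsad2 (chr12:26456453-26456612, minus strand) are promoters of genes that rose.
Isg15: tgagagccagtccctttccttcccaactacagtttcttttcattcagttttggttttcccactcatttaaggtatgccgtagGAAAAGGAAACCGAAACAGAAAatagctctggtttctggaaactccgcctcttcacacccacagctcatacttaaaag
Oas1a: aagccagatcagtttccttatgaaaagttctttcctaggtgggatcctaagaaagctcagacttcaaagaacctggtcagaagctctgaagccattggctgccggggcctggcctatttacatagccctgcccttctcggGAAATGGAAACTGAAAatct
Oas3: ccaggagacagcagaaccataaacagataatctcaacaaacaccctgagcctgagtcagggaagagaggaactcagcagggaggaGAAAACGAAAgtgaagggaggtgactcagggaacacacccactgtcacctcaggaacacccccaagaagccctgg
Rsad2: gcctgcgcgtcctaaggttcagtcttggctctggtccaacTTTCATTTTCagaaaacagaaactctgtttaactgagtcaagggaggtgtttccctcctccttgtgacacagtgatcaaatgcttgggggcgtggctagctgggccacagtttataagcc
The next are promoters of genes that fell, namely Ifit1 (chr19:34640729-34640888, plus strand), Gbp2 (chr3:142620503-142620662, plus strand) and Gbp7 (chr3:142530176-142530335, plus strand).
Ifit1: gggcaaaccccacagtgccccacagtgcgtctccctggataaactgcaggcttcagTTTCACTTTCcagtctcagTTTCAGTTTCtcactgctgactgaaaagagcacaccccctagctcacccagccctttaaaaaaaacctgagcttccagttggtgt
Gbp2: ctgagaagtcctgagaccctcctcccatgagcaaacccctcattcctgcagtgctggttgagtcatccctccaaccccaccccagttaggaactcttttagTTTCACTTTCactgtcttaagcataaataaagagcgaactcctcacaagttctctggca
Gbp7: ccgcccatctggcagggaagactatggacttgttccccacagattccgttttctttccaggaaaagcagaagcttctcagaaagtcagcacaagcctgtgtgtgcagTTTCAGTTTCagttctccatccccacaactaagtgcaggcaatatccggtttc
Bst2 (chr8:71537473-71537632, minus strand) and Gbp3 (chr3:142559884-142560043, plus strand) did not pass the test and carry overlapping matches, as Isg15 and Oas1a do.
Bst2: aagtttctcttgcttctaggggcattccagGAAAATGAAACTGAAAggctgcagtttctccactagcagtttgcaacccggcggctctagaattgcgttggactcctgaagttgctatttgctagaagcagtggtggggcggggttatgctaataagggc
Gbp3: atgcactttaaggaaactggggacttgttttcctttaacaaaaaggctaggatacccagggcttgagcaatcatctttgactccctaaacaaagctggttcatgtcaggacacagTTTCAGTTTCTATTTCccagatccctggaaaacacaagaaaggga

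Among the factors that carry the interferon signal, 1 of 3 rose and 1 fell. Irf7, the factor that amplifies type I interferon production, had 1933 and 1971 normalized counts in the sham libraries, against 2207 and 2173 after PNX. It rose by 12.2% (log2 fold change 0.17, SE 0.037, adjusted p = 7.2e-05), with no overlap between the groups. Stat2 had 5558 and 5754 counts against 5289 and 5152, lower in both post-PNX libraries (log2 fold change -0.11, SE 0.026, adjusted p = 0.00013), but 0.10 higher on the log2 scale under the endothelial scaling. Irf9, the DNA-binding subunit of the complex, had 3962 and 3914 counts against 3809.7 and 3766 and did not pass the test (log2 fold change -0.06, adjusted p = 0.081).

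The 4 sensors of foreign nucleic acid included the member with the highest rise. Zbp1, which triggers necroptosis on binding left-handed RNA or DNA, had 601 and 581 normalized counts in sham ECs and 934 and 982 in post-PNX ECs. This rise of 61.7% (log2 fold change 0.69, SE 0.058, adjusted p = 1.9e-16) stood far outside the gap between libraries of a group.

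The 3 RIG-I-like receptors, helicases that recognise viral RNA in the cytoplasm, gave 1 rise, 1 fall and 1 gene that did not pass. Dhx58, which encodes LGP2, a regulator of the other receptors, had 812 and 828 counts against 925 and 992 (log2 fold change 0.22, adjusted p = 0.00027). By DESeq2's Wald test its adjusted p was 0.021, and without PNX replicate 2 it was 0.016 in edgeR. Ifih1, which encodes MDA5, the receptor for long double-stranded RNA, fell from 3365 and 3257 counts to 2770.1 and 2733 (log2 fold change -0.27, SE 0.032, adjusted p = 5.9e-11), with -0.05 and no call under the endothelial scaling. Ddx58, which encodes RIG-I itself, overlapped between the groups, with 4538 and 4617 counts against 4474 and 4633 (adjusted p = 0.81, 95% interval of the log2 fold change -0.06 to 0.05).

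The 5 members from the 2-5A synthetase family all rose, with a median log2 fold change of 0.39. Outside the members, the related gene Oas1g rose as well (log2 fold change 0.63, adjusted p = 0.0012). Oas1b (-0.20, adjusted p = 0.015) and Oas1c (0.09, adjusted p = 0.47) did not pass. OAS proteins make 2-5A, the messenger that activates RNase L, on binding double-stranded RNA, while Oasl1 encodes a relative that lacks this activity and represses Irf7 translation. Oas1a had 611 and 565 normalized counts in sham ECs and 900.1 and 857 in post-PNX ECs. It rose by 49.4% (log2 fold change 0.58, SE 0.060, adjusted p = 5.6e-13), and the lower post-PNX library lay well above the higher sham library.

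Oasl1, among the lowest members, had 217 and 214 counts against 301 and 319.8 (log2 fold change 0.52, SE 0.096, adjusted p = 3.5e-06). Oasl2, the most abundant of the family in counts, had 3519.5 and 3508 against 4253 and 4349 (log2 fold change 0.29, SE 0.029, adjusted p = 1.3e-13). Both post-PNX libraries lay above both sham libraries for each.

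Oas2 had 1138 and 1204 counts against 1449 and 1445 (log2 fold change 0.31, SE 0.045, adjusted p = 2.5e-08). Oas3 had 286 and 254 against 345 and 364, the widest within-group spread of the members at an SD of 0.095 on the log2 scale (log2 fold change 0.39, SE 0.090, adjusted p = 0.00015), and its adjusted p by DESeq2's Wald test was 0.016. The 5 genes lie on chromosome 5, with Oas2, Oas3 and Oas1a in a cluster and Oasl2 and Oasl1 in another, 10898 bp apart. Reads shared with close copies, such as other Oas1 genes or Oasl1 and Oasl2, could be split between them by the counting.

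The 3 IFIT genes, whose proteins bind viral RNA at its cap and block its translation, gave 1 fall and no rise. Ifit1 had 1374 and 1344 normalized counts in sham ECs and 1158 and 1200.01 in post-PNX ECs, and it fell by 13.4% (log2 fold change -0.21, SE 0.046, adjusted p = 7.2e-05), with a value of 0.0077 under the endothelial scaling. Ifit2 had 1526 and 1523 counts against 1533 and 1501, and its groups overlapped (log2 fold change -0.01, adjusted p = 0.90). Ifit3 likewise overlapped, with 2134 and 2135 counts against 2066 and 2168 (log2 fold change -0.01, adjusted p = 0.76).

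No IFIT gene rose by edgeR, at an unadjusted p under 0.05 or by DESeq2, whereas under the endothelial scaling Ifit2 and Ifit3 were higher by 0.21 and 0.20 on the log2 scale. Ifit3 has a close copy, Ifit3b, and reads from the pair may not be told apart.

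Isg15 rose, and its protease did not pass the test. Isg15 encodes the ubiquitin-like protein that is attached to newly made proteins and also secreted, and it had 727 and 687 normalized counts in sham ECs and 975 and 1038 in post-PNX ECs. It rose by 41.9% (log2 fold change 0.50, SE 0.056, adjusted p = 4.7e-12). Usp18, which removes ISG15 from proteins and restrains IFNAR signalling, had 1115 and 1170.3 counts against 1083 and 1103 (log2 fold change -0.06, 95% interval -0.16 to 0.03, adjusted p = 0.25). The 95% intervals of the pair did not overlap, although the difference between them was not tested.

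Both MX genes encode dynamin-like GTPases that trap viral nucleocapsids. Mx1 rose from 250.03 and 241 normalized counts to 316 in both post-PNX libraries (log2 fold change 0.37, SE 0.093, adjusted p = 0.00047), with an adjusted p of 0.030 by DESeq2's Wald test. Mx2, 73175 bp away on chromosome 16, had 323 and 327 counts against 278 and 293, below both sham libraries, and did not pass (log2 fold change -0.19, SE 0.089, adjusted p = 0.056). C57BL6J mice carry an Mx1 allele that makes no functional protein, and the counts of Mx1 and Mx2 alike speak of the transcript alone.

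The guanylate-binding proteins attack the membranes of intracellular pathogens and respond to interferon-gamma more than to type I interferon. Gbp7 had 7842 and 7251 normalized counts in sham ECs and 5093 and 5241 in post-PNX ECs, and it fell by 31.6% (log2 fold change -0.55, SE 0.027, adjusted p = 9.9e-27), the largest fall among the members. Under the endothelial scaling it was still lower, at -0.33. Gbp2 had 7637 and 7549.6 counts against 6976 and 7190.01, a small fall that did not pass without PNX replicate 1 (log2 fold change -0.10, adjusted p = 0.00017, against 0.027 without that library) and that turned to 0.11 under the endothelial scaling.

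Gbp3, between Gbp7 and Gbp2 on chromosome 3 and 9865 bp from Gbp7, had 3378 and 3512 counts against 3574 and 3565 (log2 fold change 0.05, adjusted p = 0.12). It was the only one of the 10 Gbp genes tested with both post-PNX libraries above both sham libraries. Of those 10 (Gbp2 to Gbp11), 8 fell and 0 rose, by edgeR and by DESeq2 alike and also at an unadjusted p under 0.05. By edgeR, 27.8% of all genes tested fell and 29.3% rose. The 10 genes had a median log2 fold change of -0.40, beside -0.18 under the endothelial scaling. Under that scaling 5 were lower and 2 higher, beside 10.6% and 53.9% of all genes tested. Summed over the 10 genes, sham libraries held 40588 and 40165 normalized counts against 32566 and 32586 in the post-PNX libraries. The family was put together with the values of these genes known, and its members are similar in sequence, so that reads may be split between them.

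Of the factors that restrict virus at membranes, Ifitm3, which blocks fusion of virus with endosomes, was the most abundant member. It had 18166 and 18470.2 normalized counts against 20346 and 20001 (log2 fold change 0.14, SE 0.019, adjusted p = 3.8e-09), a rise of 10.2%. Bst2, which encodes tetherin and is also abundant in plasmacytoid dendritic cells (pDCs), had 6192 and 6516 counts against 6569.9 and 6524 (log2 fold change 0.04, 95% interval -0.01 to 0.09, adjusted p = 0.12). Its post-PNX libraries lay just above its sham libraries.

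Rsad2 and Cmpk2 are neighbours on chromosome 12, 12665 bp apart, and act in a common pathway. Rsad2 encodes viperin, which makes a chain-terminating nucleotide from CTP, and it rose from 638 and 649 normalized counts to 804 and 777 (log2 fold change 0.30, SE 0.059, adjusted p = 1.3e-05). Cmpk2, the nucleotide kinase that supplies CTP, had 1968 and 2016 counts against 1838 and 1904 and did not pass at 0.01 (log2 fold change -0.09, SE 0.038, adjusted p = 0.033). Their 95% intervals, 0.18 to 0.42 and -0.17 to -0.01, did not overlap. The difference between them was not tested, and Cmpk2 was 0.12 higher under the endothelial scaling.

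The 3 genes of antigen processing all rose, and by small steps. They lie side by side in the MHC region of chromosome 17. Tap1, a subunit of the transporter that moves peptides into the endoplasmic reticulum, had 4947 and 4933 normalized counts in sham ECs and 5750.4 and 5786 in post-PNX ECs (log2 fold change 0.22, SE 0.026, adjusted p = 2.2e-11). Psmb8, a catalytic subunit of the immunoproteasome, had 4674 and 4745 counts against 5243 and 5106 (log2 fold change 0.14, SE 0.027, adjusted p = 9.7e-06).

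Psmb9, another such subunit, had 2320.1 and 2392.5 counts against 2574 and 2523 (log2 fold change 0.11, SE 0.034, adjusted p = 0.0030). The call was lost by DESeq2's Wald test at an adjusted p of 0.068, with counts summed over transcripts at 0.012, without sham replicate 1 at 0.049 and without PNX replicate 1 at 0.047. Psmb9 and Tap1 are read in opposite directions from starts 226 bp apart, and the 225 bases between them (chr17:34187331-34187555, GRCm38.p6, plus strand, on which Tap1 is read) separate the starts. Neither the response element core nor TTCNNNGAA was found in it, so it is printed without capitals.
Psmb9 and Tap1: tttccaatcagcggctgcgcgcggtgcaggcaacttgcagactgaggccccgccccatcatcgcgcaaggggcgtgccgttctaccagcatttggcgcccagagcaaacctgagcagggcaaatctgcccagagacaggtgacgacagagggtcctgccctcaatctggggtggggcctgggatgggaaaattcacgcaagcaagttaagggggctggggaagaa

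Of the 5 other effectors, 3 were lower and 0 higher by edgeR and by DESeq2. By edgeR, 27.8% of all genes tested were lower and 29.3% higher. Parp14, which modifies proteins with ADP-ribose and modulates STAT6 activity, fell from 8878 and 8942 normalized counts to 7274 and 7243 (log2 fold change -0.30, SE 0.023, adjusted p = 6.7e-18). Ifi35, a partner of Nmi in cytoplasmic complexes, had 3409.9 and 3401 counts against 2968 and 2934 (log2 fold change -0.21, SE 0.031, adjusted p = 3.6e-08). Ifi44, which resembles a GTPase, fell from 1319.9 and 1277 to 1098 and 1129 (log2 fold change -0.22, SE 0.047, adjusted p = 2.9e-05).

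Parp14 was still lower under the endothelial scaling, at -0.081, whereas Ifi35 and Ifi44 stood at 0.0084 and -0.0095 there. Xaf1, an antagonist of XIAP, had 2081 and 1954 counts against 1856 and 1923 (log2 fold change -0.10, adjusted p = 0.024, and 0.12 under the endothelial scaling), and it fell without sham replicate 2 (-0.14, adjusted p = 0.0051). Rtp4, a chaperone of receptors that also binds viral replicases, had 1546 and 1569.9 against 1718 and 1629 (log2 fold change 0.11, adjusted p = 0.023), and it alone of the 5 passed an unadjusted p under 0.05 in the upward direction.

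Members differed far more in level than in response. Levels in the sham libraries were computed here in the units of FPKM, as raw counts over transcript length and over the library total. That total was the count over the transcripts used, without TMM. Levels were highest for Ifitm3 at 613, followed by Bst2 at 179.7, Psmb8 at 83.4, Gbp2 at 67.0 and Psmb9 at 63.3. They were lowest for Oas3 at 1.24, Mx1 at 1.91, Oasl1 at 2.20, Mx2 at 2.92 and Rsad2 at 3.68. Levels per length rest on the transcript chosen for each gene.

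The members were also split into sets of equal size by their mean normalized counts. Of the 17 members with the lowest mean normalized counts, 9 rose and 2 fell, with a median log2 fold change of 0.22, and of the other 17 genes 6 rose and 6 fell, with a median of -0.01. Over all genes tested in the same count ranges, 31.8% rose and 24.6% fell in the lower range and 33.3% rose and 40.5% fell in the upper. The difference between the sets of 17 was not tested.

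Upstream of the members, transcripts of the interferons themselves were close to absent, with 1 exception. Of 21 ligand genes, the 20 that encode type I and type III interferons had between 0 and 3 counts in every library, so their change was not detectable at this depth. Ifng, the interferon-gamma that T cells and natural killer cells make, had 50.7 and 38.7 normalized counts in sham ECs and 84.5 and 82.5 in post-PNX ECs. It rose (log2 fold change 0.89, SE 0.20, adjusted p = 7.4e-05), although its adjusted p by DESeq2's Wald test was 0.012. Beside this rise, T cell markers fell in 6 of 6 genes and natural killer cell markers passed in 0 of 6.

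Of the 6 receptor chains, 2 rose and 2 fell (33.3% each, against 29.3% and 27.8% of all genes tested). Ifnar1 rose from 5509 and 5724 to 6799 and 6591 normalized counts (log2 fold change 0.25, adjusted p = 1.7e-13), while its partner Ifnar2 had 4668 and 4786 against 4746 and 4956 (log2 fold change 0.04, adjusted p = 0.24). Ifngr2 rose (log2 fold change 0.17, adjusted p = 1.2e-06) and Ifngr1 fell (log2 fold change -0.12, adjusted p = 7.5e-07), the latter 0.093 higher under the endothelial scaling. Ifnlr1, the chain particular to type III interferon and best known from epithelium, fell from 332 and 314 to 201 and 226 (log2 fold change -0.60, adjusted p = 1.8e-07), beside a fall of all 6 epithelial markers. Il10rb, which it shares with other cytokines, stood at 0.02 on that scale (adjusted p = 0.60).

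Of 12 JAK, STAT and IRF genes, 2 rose (16.7%, against 29.3% of all genes tested) and 4 fell (33.3%, against 27.8%). Their median log2 fold change was -0.03. Irf1, the early factor of the interferon-gamma response, stood at 0.05 on the log2 scale (adjusted p = 0.030) and Irf8, a factor of myeloid cells and dendritic cells, at 0.02 (adjusted p = 0.61).

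Stat3 and Irf5 were the genes that rose, at log2 fold changes of 0.13 and 0.15, with overlapping groups for Irf5. The latter call ended by DESeq2 at an adjusted p of 0.080, without sham replicate 2 at 0.12, without PNX replicate 1 at 0.37 and with counts summed over transcripts at 0.017. Irf2, a repressor of interferon-stimulated genes, fell (-0.13) and stood at 0.086 under the endothelial scaling.

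Of 14 sensors and adaptors 5 rose (35.7%, against 29.3% of all genes tested) and 3 fell (21.4%, against 27.8%). The largest rises were those of the pair that senses cytosolic DNA. Tmem173, which encodes the adaptor STING, rose from 909.5 and 871 to 1751 and 1727 normalized counts (log2 fold change 0.97, SE 0.046, adjusted p = 1.5e-27). Mb21d1, which encodes cGAS, the enzyme that makes the ligand of STING, rose from 359.7 and 361 to 654 and 679 (log2 fold change 0.89, SE 0.071, adjusted p = 3.0e-17). Both lay just under 2-fold, above every member of the interferon-stimulated genes. Traf6 and Mavs, the adaptor of the RIG-I-like receptors, showed the largest falls, at log2 fold changes of -0.26 and -0.19, and stood at -0.05 and 0.025 under the endothelial scaling.

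Genes that restrain the response were split, with 4 of 9 higher and 4 lower (44.4% each, against 29.3% and 27.8% of all genes tested). The largest rises were those of Rnaseh2b, a subunit of the nuclease that removes RNA from DNA (log2 fold change 0.70, adjusted p = 9.8e-17), and Socs1, an inhibitor of JAK kinases (0.51, adjusted p = 0.00012, against 0.014 by DESeq2). The largest falls were those of Pias1, an inhibitor of STAT signalling (-0.42, adjusted p = 2.3e-15), and Socs3 (-0.41, adjusted p = 2.0e-27). Socs3 was abundant, falling from 21992 and 22712 to 16809 and 16938 normalized counts.

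A further list of 40 type I interferon-stimulated genes, 37 of them tested, was split as well. Of these 7 rose (18.9%, against 29.3% of all genes tested) and 10 fell (27%, against 27.8%), with a median log2 fold change of -0.01. Only Ifi204 passed 2-fold, from 485 and 536 to 1298 and 1238 normalized counts (log2 fold change 1.32, adjusted p = 1.3e-29). Ifi204 belongs to a family of DNA-binding proteins with close copies and is abundant in macrophages, whose markers rose in 7 of 8 genes. Lgals3bp rose as well (0.51), and Slfn5 and Ifitm1 showed the largest falls (-0.57 and -0.37). Under the endothelial scaling 22 of the 37 were higher and 4 lower, beside 53.9% and 10.6% of all genes tested.

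Among the 24 tested genes best known for induction by interferon-gamma, 5 were higher (20.8%, against 29.3% of all genes tested) and 15 lower (62.5%, against 27.8%). Their median log2 fold change was -0.25. It moved to -0.03 under the endothelial scaling, with 9 higher and 7 lower, beside 53.9% and 10.6% of all genes tested. The list holds Gbp4, Gbp5, Gbp6, Gbp8, Gbp9, Gbp10 and Gbp11, so their falls are counted both here and in the Gbp family above. Cxcl10, the chemokine that draws activated T cells, rose most, from 193 and 195 to 783 and 687 normalized counts (log2 fold change 1.93, SE 0.083, adjusted p = 7.7e-30), beside the rise of macrophage and monocyte markers. Gbp10 fell from 184 and 144 to 68.8 and 85.8 (log2 fold change -1.10, adjusted p = 4.3e-09). Ido1, which degrades tryptophan, fell as well (-0.68), and Cd74, the invariant chain of class II MHC, rose (0.16).

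Of 17 genes of class I presentation, 11 rose (64.7%, against 29.3% of all genes tested) and 2 fell (11.8%, against 27.8%). Their median log2 fold change was 0.10. The largest rises were those of chaperones with wider duties in the endoplasmic reticulum, Pdia3 (0.55, adjusted p = 9.5e-37) and Calr (0.48, adjusted p = 6.0e-33). H2-T23 and Tapbpl fell (-0.26 and -0.12), with -0.05 and 0.092 under the endothelial scaling, and Tapbpl had an adjusted p of 0.032 by DESeq2, 0.030 without sham replicate 2 and 0.056 without PNX replicate 1. The constitutive proteasome subunits Psmb5, Psmb6 and Psmb7, which Psmb8 and Psmb9 and their partner replace in the immunoproteasome, rose too, at log2 fold changes of 0.37, 0.27 and 0.28, above those of Psmb8 and Psmb9.

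**Figure D3:**
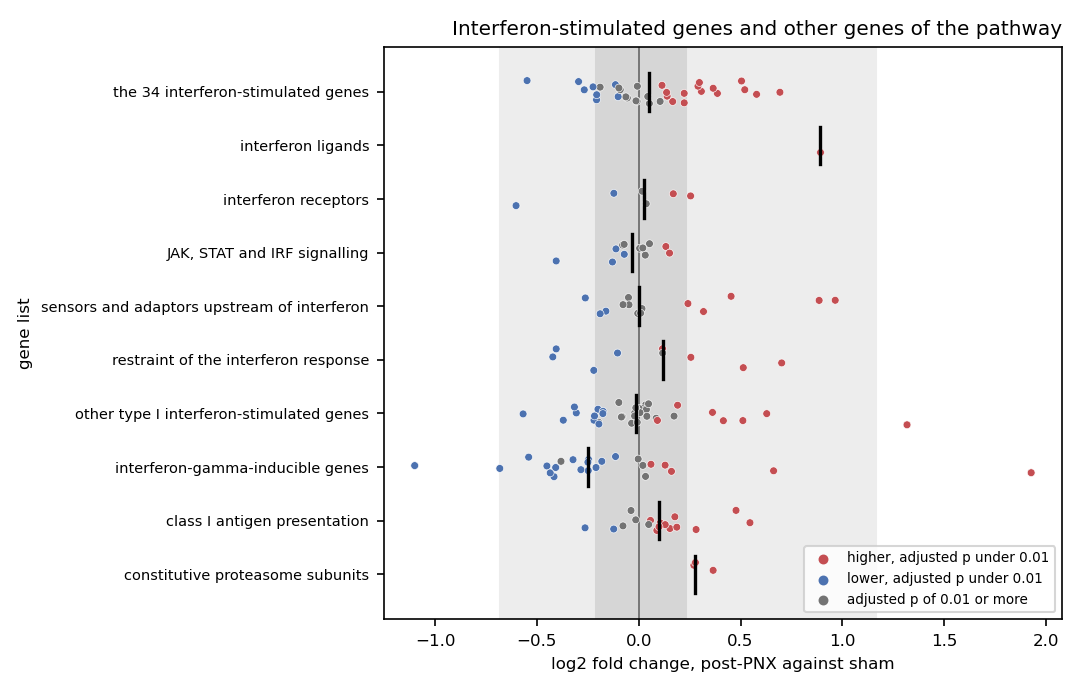
Log2 fold change, post-PNX against sham (x axis), of the 34 interferon-stimulated genes and of 9 lists of other genes of the pathway (y axis). Each point is a gene tested, red where higher and blue where lower at an adjusted p under 0.01, black bars are the medians, and the shaded bands hold the middle 50% and 90% of all genes tested. The list of interferon-gamma-inducible genes has its median at -0.25, with Cxcl10 at 1.93 to its far right.

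Markers of other cells were present beside those of endothelium and moved with the groups, and every marker tested had counts in all 4 libraries. Macrophage and monocyte markers rose in 7 of 8 genes, at a sum of 22491 to 22932 normalized counts in the sham libraries against 51211 to 51264 in the post-PNX libraries, with Mrc1 most abundant and the largest rise in C1qb, a complement gene of tissue macrophages (log2 fold change 2.98). Fibroblast markers rose in 5 of 6 and fell in 1, at a sum of 50508 to 50634 against 168596 to 169184. Among them Col3a1 went from 18204 and 18262 to 88042 and 88445. Mesothelial markers rose in 4 of 4, at 5405 to 5555 against 16131 to 16272, with Msln most abundant. Neutrophil markers, with S100a9 most abundant, rose in 4 of 5 and fell in 1, and pan-leukocyte markers, with Laptm5 most abundant, rose in 2 of 4 and fell in 1.

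Markers of pDCs, the main producers of type I interferon, fell in 6 of 6, with a sum of 1247 to 1263 against 647 to 653 normalized counts. T cell markers fell in 6 of 6, at 2296 to 2312 against 1264 to 1275 with Lck most abundant, and B cell markers in 5 of 5, at 6161 to 6197 against 3421 to 3571. Conventional dendritic cell markers, with Clec9a most abundant, fell in 3 of 5. Epithelial markers fell in 6 of 6, at 399789 to 402201 against 238293 to 241501, with Sftpc, the surfactant protein of alveolar type II cells, at 171272 and 170757 against 111404 and 110651. The 12 endothelial genes summed to 503555 to 508644 against 434803 to 437260. The most abundant of these, Cdh5, had 109837 and 110681 against 93964 and 95234, below Sftpc in every library. Of 6 natural killer cell markers, with Gzma most abundant, 0 passed by edgeR or DESeq2, and 1 rose and 2 fell at an unadjusted p under 0.05. The part of these cells in the values of the interferon-stimulated genes, or of the other genes named beside marker lists (Ifng, Ifnlr1, Ifi204 and Cxcl10), was not tested.

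**Figure D4:**
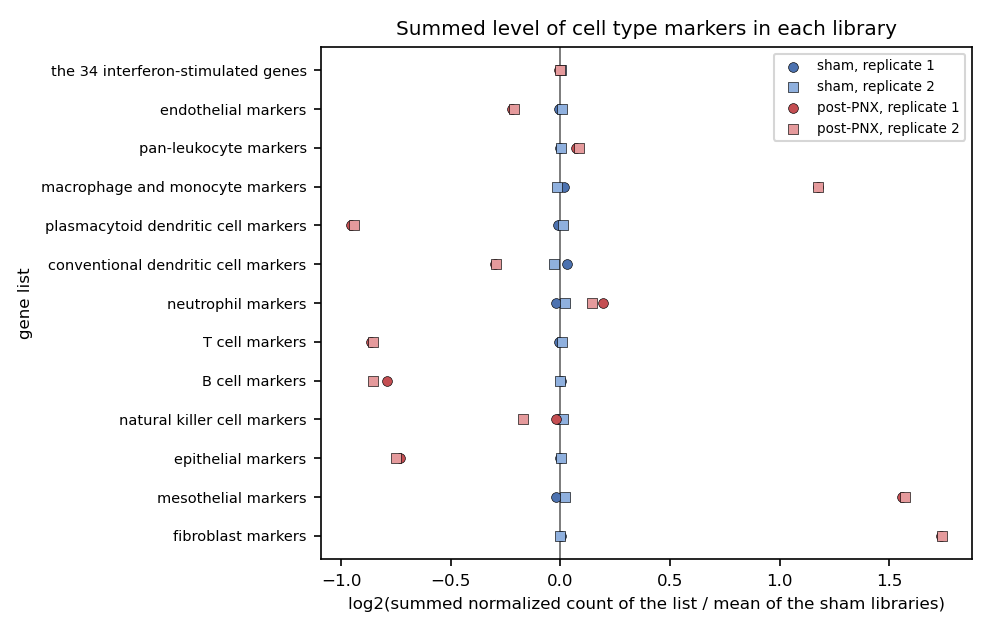
Summed normalized count of the 34 interferon-stimulated genes and of the markers of each cell type (y axis) in each library, as the log2 ratio to the mean of the sham libraries (x axis). Circles and squares are replicates 1 and 2, sham in blue and post-PNX in red. The sum of the interferon-stimulated genes stays at 0 while macrophage, mesothelial and fibroblast markers lie far to the right and pDC, T cell, B cell and epithelial markers to the left.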

How the data were processed

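RNA from CD31-selected ECs was made into stranded mRNA libraries (TruSeq) and sequenced paired-end on a NextSeq500. The authors' notes name STAR and mm10; its version and the counting program are not given in the sources used here. The deposited tables list, per transcript, a raw count, an FPKM value and a TPM value, and the paper's own comparison used DESeq2. Here the deposited counts were tested, and the deposited FPKM and TPM values were not. Since transcripts of a gene may share reads, 1 transcript per symbol was kept, the one with the most counts over the 4 libraries (41367438 to 50952879 counts per library).

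edgeR 4.0.16 (R 4.3.3; filterByExpr, TMM factors 0.998 to 1.00, quasi-likelihood F test) was fitted to all 4 libraries without covariates, with Benjamini-Hochberg adjustment over 16208 genes. SE was the absolute log2 fold change over the root of F. A gene rose or fell at an adjusted p under 0.01; the study's pair of thresholds also asks for a log2 fold change beyond 1. The script was tested on simulated data. Replicates differed more than counting noise (mean chi-square per gene 1.76 within sham and 1.52 within PNX, 133 and 118 between groups). Every member was named; of other pathway lists, every receptor, every ligand with more than 3 counts in any library, Irf1, Irf8, Psmb5, Psmb6, Psmb7 and the 2 largest rises and falls per list among genes called that had mean normalized counts of 100 or more; of marker lists, the gene with the highest mean. C1qb was named after its values were seen, and a few genes that these rules name are not reported here. The members and lists were chosen with earlier results of these data known. Alternatives were DESeq2 1.42.0 (size factors and Wald test), library size alone, scaling to 12 endothelial genes, other filters on low counts (none, or a mean of at least 50), summed transcripts, a replicate block, an adjusted p under 0.05, a test against a log2 fold change of 1 and leaving out each library. Promoters came from RefSeq (GRCm38.p6, the build also named mm10).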

Additional observations from a re-analysis of the deposited data

How the results depend on the processing

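Of the alternatives, the scaling to 12 endothelial genes changed most: 26 members were higher, 2 lower and the median log2 fold change was 0.26. The test against a log2 fold change of 1 left no member called. Of the 15 members that rose, 11 kept the call under every other alternative. Of the 8 that fell, 2 did, or 7 when the endothelial scaling is set aside as well. Under that scaling 12 members changed sign, to 0.16 (Irf9), 0.10 (Stat2), 0.21 (Ddx58), 0.0077 (Ifit1), 0.21 (Ifit2), 0.20 (Ifit3), 0.15 (Usp18), 0.025 (Mx2), 0.11 (Gbp2), 0.12 (Cmpk2), 0.0084 (Ifi35) and 0.12 (Xaf1), and so did Ifngr1 (0.093), Irf2 (0.086), Mavs (0.025) and Tapbpl (0.092) among the other genes named. It moves the median of all genes to 0.22, with 53.9% of all genes tested higher and 10.6% lower. It gave 5 receptors higher and 1 lower, 10 and 0 of the JAK, STAT and IRF genes, 10 and 0 of the sensors and adaptors, 2 restraint genes lower, 22 and 4 of the other type I genes, 9 and 7 of the interferon-gamma-inducible genes and 0 class I presentation genes lower. DESeq2's Wald test left 0 ligands, 1 JAK, STAT or IRF gene, 2 restraint genes and 3 interferon-gamma-inducible genes higher and 1 class I presentation gene lower.

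Leaving out each library in turn gave 14 to 15 members higher and 7 to 9 lower, 0 past 2-fold, and a median log2 fold change of 0.015 to 0.080, the lowest without sham replicate 1 and the highest without sham replicate 2. Values near 0 changed sign in Ddx58 (-0.032 to 0.019, above 0 without sham replicate 2 or PNX replicate 1), Ifit2 (-0.021 to 0.0083, above 0 without PNX replicate 2), Ifit3 (-0.047 to 0.024, above 0 without PNX replicate 1) and Irf8 (-0.0024 to 0.042, below 0 without PNX replicate 1).

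A fit with the replicate number as a block gave 15 members higher and 8 lower, a median of 0.05 and no changed call among the members. The numbers share nothing but the label, since the pools came from different mice and the correlation of the replicate differences between the groups was 0.024 over 13402 genes.

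With 2 pools of mice per group, a change that did not pass is not shown to be absent. For the 20 interferon ligand genes at 0 to 3 counts the depth is the limit. Genes with close copies may share reads, and the marker lists moved with the groups; the cause of the calls that were lost was not tested. DESeq2's Wald test left 11 members higher and 8 lower, an adjusted p under 0.05 gave 16 and 10, and the test against a log2 fold change of 1 gave 0 either way.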
